A study of Homo sapiens with 4 samples.

Results

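EPH receptors and ephrin-B ligands are cell surface proteins through which neighbouring cells attract or repel each other. The transcripts of 10 such genes were compared between a colorectal cancer line that had become resistant to tankyrase inhibitors and its parent: the EphB receptor genes EPHB1, EPHB2, EPHB3, EPHB4 and EPHB6, the EphA receptor genes EPHA2, EPHA4 and EPHA7, and the ligand genes EFNB1 and EFNB2. All probe sets annotated to exactly 1 of these symbols were taken, which gave 21 probe sets for 9 of the 10 genes, among 19775 genes named on the array. The annotation supplied gives no probe set to EPHB2, so EPHB2 was not analysed here. The arrays were 2 of 320-IWR, the resistant line that grew out of continuous culture of COLO-320DM with the tankyrase inhibitor IWR-1, and 2 of COLO-320DM, the untreated parental line. All cells were grown in dishes to near confluency. 320-IWR is a selected subline, and no untreated line cultured for the same time was among the arrays. The sources used here do not say whether IWR-1 was in the medium at harvest. Nor do they call the 2 arrays of a line separate cultures, so p-values rest on a spread that may be technical only.

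EPH receptors are the largest family of receptor tyrosine kinases, and their ephrin ligands stay bound to the membrane, so that signals run forward into the receptor cell and in reverse into the ligand cell. EphA receptors mostly bind ephrin-A ligands, which are held by a lipid anchor, and EphB receptors bind ephrin-B ligands, which cross the membrane and end in a tail that recruits PDZ domain proteins. EPHA4 binds ligands of both classes. In the intestinal crypt β-catenin and TCF4 induce EPHB2 and EPHB3, and the opposing gradients of EphB receptors and ephrin-B1 keep proliferating and differentiated cells apart. Tankyrase inhibitors stabilise Axin and thereby lower β-catenin. In these cells the paper reports a fall of active β-catenin, without a marked fall of the total level.

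Of the 9 measured genes, EFNB2 had about 2-fold higher intensities in 320-IWR cells, a difference that did not pass the test over the whole array, and no probe set of the other 8 differed by 2-fold. The 250 bases before the RefSeq start site of each ephrin-B gene are shown because one ligand gene had a 2-fold difference in intensity and the other did not. Each is printed in the direction of transcription, with its CG dinucleotides in capitals. The EFNB2 stretch is on the minus strand of GRCh38.p14, at chr13:106535663-106535912, and the EFNB1 stretch on the plus strand, at chrX:68828771-68829020.
EFNB2: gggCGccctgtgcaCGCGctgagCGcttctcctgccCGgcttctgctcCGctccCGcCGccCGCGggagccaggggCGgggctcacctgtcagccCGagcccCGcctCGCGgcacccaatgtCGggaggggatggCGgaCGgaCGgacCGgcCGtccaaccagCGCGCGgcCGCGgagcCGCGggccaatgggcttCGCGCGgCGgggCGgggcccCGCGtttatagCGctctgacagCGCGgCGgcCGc
EFNB1: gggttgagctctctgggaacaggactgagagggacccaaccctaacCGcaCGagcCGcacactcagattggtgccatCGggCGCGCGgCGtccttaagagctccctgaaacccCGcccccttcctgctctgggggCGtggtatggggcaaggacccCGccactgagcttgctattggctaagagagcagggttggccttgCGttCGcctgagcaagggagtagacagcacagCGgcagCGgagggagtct
The EFNB2 stretch holds 40 CG dinucleotides and the EFNB1 stretch 15, against a median of 11 over 35116 RefSeq promoters. Methylation was not measured. The TCF/LEF motif was searched for on both strands, over 250 bases before and 50 after each start, as CTTTGNN, in which each N was A or T. It is in none of the 14 promoters that the table gives for the 10 genes, EPHB2 included, and in 13.8% of all promoters. This says only that these letters are not in these windows.

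The values are intensities on a linear scale, made by the authors with RMA, a method that normalizes the arrays to each other and gives 1 value per probe set. Array medians lay between 41.1 and 41.9, and how far a value lies above background is not known. A probe set is said to rise or fall where limma, a linear model fitted to the log2 values of all probe sets, gave an adjusted p under 0.05 and a difference of at least 2-fold. Of all probe sets, 61 rose (0.112% of 54613) and 141 fell (0.258%) in 320-IWR cells. Among 9 markers of colon epithelium CDX2 was bright, with intensities of 2723 and 2790.2 in 320-IWR cells and 3403 and 3263 in COLO-320DM cells, whereas CDH1 and EPCAM stayed under the array medians on all arrays. The summed intensity of the 9 was 3642 to 3747 in 320-IWR cells and 5363 to 5536 in COLO-320DM cells, and KRT8 and KRT18 fell and KRT20 rose. The summed intensity of 6 neuroendocrine markers was 213 to 219 in 320-IWR cells and 228 to 235 in COLO-320DM cells. It was 249 to 303 and 212 to 255 for 4 leukocyte markers, and 120 to 128 and 115 to 119 for 4 endothelial markers, in the same order of lines. No neuroendocrine, leukocyte, fibroblast or endothelial marker passed the test, and 1 of them, the neuroendocrine marker ENO2, had an unadjusted p under 0.05. ENO2 had a log2 fold change of -1.12. The other neuroendocrine markers had 0.32 (CHGA), 0.16 (CHGB), 0.16 (SYP), -0.03 (NCAM1) and 0.03 (INSM1), so the lower sum was not shared by the list. The part of these differences in the results below was not tested.

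Of the 21 probe sets, limma called 0 in either direction, against 0.112% of all probe sets that rose and 0.258% that fell. With shares this low, 0 of 21 does not set these genes apart. At an unadjusted p under 0.05 there was 1 of 21, a probe set of EFNB2, against 9.71% of all probe sets. By size alone, with a difference of at least 2-fold and no overlap between the arrays of the lines, 2 were higher and 0 lower in 320-IWR cells, and the background of that rule was 0.577% higher and 1.33% lower. Both of the 2 belong to EFNB2, so they are not independent. The median log2 fold change of the 21 probe sets was -0.03, against 0.01 over all probe sets tested.

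EFNB2 encodes ephrin-B2, the ligand of EPHB4 in developing arteries and veins, which EPHA4 also binds. The brighter EFNB2 probe set, 202668_at, had intensities of 951 and 1027 on the 320-IWR arrays and 372 and 538 on the COLO-320DM arrays. Both 320-IWR arrays lay above both COLO-320DM arrays. The means were 989 ± 53.5 in 320-IWR cells and 455 ± 117 in COLO-320DM cells (SD, n = 2 each). On the log2 scale the difference was 1.14, with a 95% interval from 0.60 to 1.69. By limma's test the unadjusted p was 0.00322 and the adjusted p 0.168. The second probe set of EFNB2, 202669_s_at, was dimmer, with 199 and 332 in 320-IWR cells against 81.8 and 181 in COLO-320DM cells. Its arrays were also apart, but the lower 320-IWR array was close to the higher COLO-320DM array. The log2 fold change was 1.08 with an interval from -0.11 to 2.26 (limma adjusted p = 0.574). Between arrays of the same replicate number, the difference in 202668_at was 1.35 on the log2 scale for replicate 1 and 0.93 for replicate 2, and in 202669_s_at it was 1.29 and 0.87. All 4 of these differences pointed to higher EFNB2 in 320-IWR cells. Averaged over both probe sets, the log2 fold change of EFNB2 was 1.11, with an interval from 0.28 to 1.95 and an adjusted p of 0.258 over all genes in limma. The size of the difference was thus shared by both probe sets, and neither passed the test over all probe sets.

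EFNB1 encodes ephrin-B1, the ligand at the top of the intestinal crypt, and was measured by 1 probe set. Its intensities were 46.4 and 56.2 in 320-IWR cells and 48.7 and 53.8 in COLO-320DM cells. The COLO-320DM arrays lay between the 320-IWR arrays. The means were 51.3 ± 6.94 and 51.3 ± 3.64 in the same order (SD, n = 2 each), and the log2 fold change was 0.00 with an interval from -0.40 to 0.39. A 2-fold difference in either direction lies outside this interval.

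**Figure D1:**
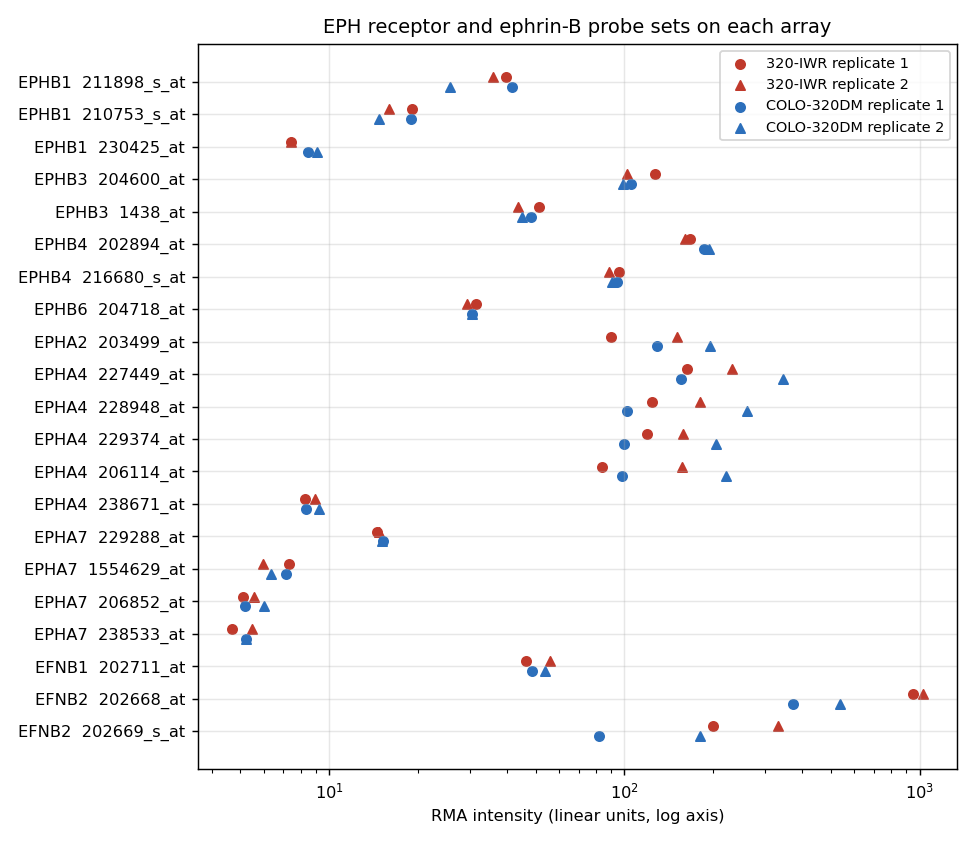
RMA intensity (log axis) of each of the 21 probe sets on each array, with 320-IWR in red, COLO-320DM in blue, replicate 1 as circles and replicate 2 as triangles. The red points of both EFNB2 probe sets lie to the right of the blue ones, while in EFNB1 and most receptor probe sets the colours overlap.

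The EphB receptors bind the ephrin-B ligands, and their 8 probe sets, for 4 genes, had log2 fold changes between -0.24 and 0.21 with a median of 0.01. EPHB3 is a crypt receptor and a known β-catenin/TCF target. Its brighter probe set had 127 and 102 in 320-IWR cells against 105 and 98.6 in COLO-320DM cells. The lines overlapped, with a log2 fold change of 0.17 (interval -0.24 to 0.57). The second EPHB3 probe set, 1438_at, had 51.5 and 43.6 in 320-IWR cells against 48.1 and 44.9 in COLO-320DM cells, a log2 fold change of 0.03 (interval -0.34 to 0.40). In neither probe set did the interval reach a 2-fold change.

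EPHB4 is the ephrin-B2 receptor of veins and is also made by epithelial cells. Its brighter probe set, 202894_at, had 167 and 160.2 in 320-IWR cells against 186 and 194 in COLO-320DM cells. These arrays did not overlap, and the difference was small, with a log2 fold change of -0.22 (interval -0.52 to 0.09; limma adjusted p = 0.712). The second EPHB4 probe set, 216680_s_at, had 96.1 and 88.9 in 320-IWR cells and 94.3 and 90.6 in COLO-320DM cells, a log2 fold change of 0.00 (interval -0.32 to 0.32). The 2 probe sets thus differed in whether the lines were apart. Set beside EFNB2, whose product EPHB4 binds, the log2 differences were 1.14 and 1.08 for the ligand gene and -0.22 and 0.00 for the receptor gene.

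EPHB1 takes part in axon guidance, and its 3 probe sets lay between 7.40 and 41.5, under the array medians. Its brightest probe set had 39.6 and 35.8 in 320-IWR cells against 41.5 and 25.6 in COLO-320DM cells, and the lines overlapped (log2 fold change 0.21, interval -0.46 to 0.88). The probe set 230425_at had 7.41 and 7.40 in 320-IWR cells against 8.46 and 9.11 in COLO-320DM cells. It had the smallest adjusted p of any receptor probe set, 0.653 by limma, at a log2 fold change of -0.24. EPHB6 encodes a receptor without kinase activity. Its 1 probe set had 31.5 and 29.2 in 320-IWR cells against 30.5 and 30.4 in COLO-320DM cells, a log2 fold change of -0.01 (interval -0.32 to 0.30). These values too were under the array medians and, with no detection calls, may be background.

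**Figure D2:**
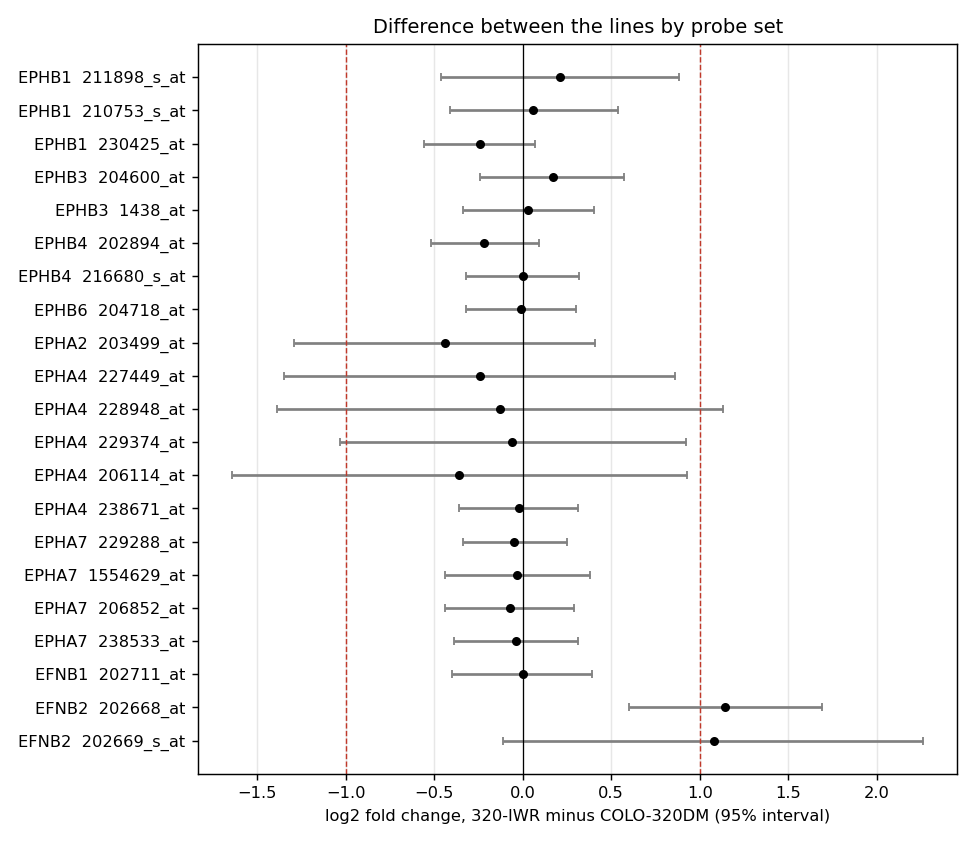
Log2 fold change of each probe set, 320-IWR minus COLO-320DM, with its 95% interval from limma; dashed lines mark a 2-fold difference. The point estimates of both EFNB2 probe sets lie beyond the line at 1, and those of the other 19 lie between -0.44 and 0.21.

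The EphA receptors bind mainly ephrin-A ligands. All 10 probe sets of the 3 genes EPHA2, EPHA4 and EPHA7 had a slightly lower mean in 320-IWR cells. Their log2 fold changes ran from -0.44 to -0.02 with a median of -0.06, against 0.01 over all probe sets tested. None passed limma's test, and the smallest adjusted p was 0.84. The sign turned in 8 of the 10, all 5 of EPHA4 and 3 of EPHA7, when a single array was left out. The lower means were not a trait of the EphA class. By their brightest probe sets the other EphA genes had 0.15 (EPHA1), 1.42 (EPHA3), 0.07 (EPHA5), -0.08 (EPHA6), 0.21 (EPHA8) and 0.09 (EPHA10). EPHA2, a receptor often abundant in carcinomas, had 90.4 and 151 in 320-IWR cells against 129 and 195 in COLO-320DM cells. The lines overlapped, and in each line replicate 1 was lower than replicate 2. Within the same replicate number EPHA2 differed by -0.51 for replicate 1 and -0.37 for replicate 2. The log2 fold change was -0.44, and its interval from -1.29 to 0.41 includes a 2-fold lower level.

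EPHA4, the receptor that binds both ligand classes, had 5 probe sets, 4 of them above the array medians. In the brightest, 227449_at, the intensities were 163 and 232 in 320-IWR cells against 155 and 344 in COLO-320DM cells. The 320-IWR arrays lay between the COLO-320DM arrays. The log2 fold change was -0.24 with an interval from -1.35 to 0.86. The other 3 brighter probe sets showed the same order of arrays within each line, with log2 fold changes of -0.13, -0.06 and -0.36. In all 4, replicate 2 was above replicate 1, by 0.41 to 0.90 on the log2 scale in 320-IWR cells and by 1.03 to 1.35 in COLO-320DM cells. EPHA4 thus varied more within a line than between the lines. The intervals of all 4 include a 2-fold lower level, and that of 228948_at, from -1.39 to 1.13, also includes a 2-fold higher level. The fifth probe set, 238671_at, was dim, at 8.30 and 8.97 in 320-IWR cells and 8.37 and 9.20 in COLO-320DM cells.

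EPHA7, a receptor of neural patterning, had 4 probe sets between 4.70 and 15.2 on all arrays, under the array medians. Its brightest had 14.5 and 14.8 in 320-IWR cells against 15.2 and 15.1 in COLO-320DM cells, a log2 fold change of -0.05 (interval -0.34 to 0.25). The other 3 had log2 fold changes from -0.07 to -0.03. With no detection calls, these EPHA7 intensities may be background in both lines.

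The spread within a line followed the replicate number in several of these genes. Of the 21 probe sets, 10 were higher on replicate 2 in both lines and 7 were higher on replicate 1 in both lines. Over all probe sets the shares were 34.5% and 35.5%. Those higher on replicate 2 include EPHA2, EPHA4, EFNB1 and both EFNB2 probe sets. A fibroblast marker, COL3A1, went the same way, at 278 and 1187 in 320-IWR cells and 292 and 1193 in COLO-320DM cells. COL1A1 did so by less, at 192 and 225 in 320-IWR cells and 198 and 221 in COLO-320DM cells. COL1A2 and DCN were lower on replicate 2 in both lines, and LUM lay between 8.12 and 9.44. The summed intensity of the 5 fibroblast markers was 562 to 1484 in 320-IWR cells and 577 to 1490 in COLO-320DM cells. What the replicate numbers stand for is not given, and its part in these values was not tested.

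**Figure D3:**
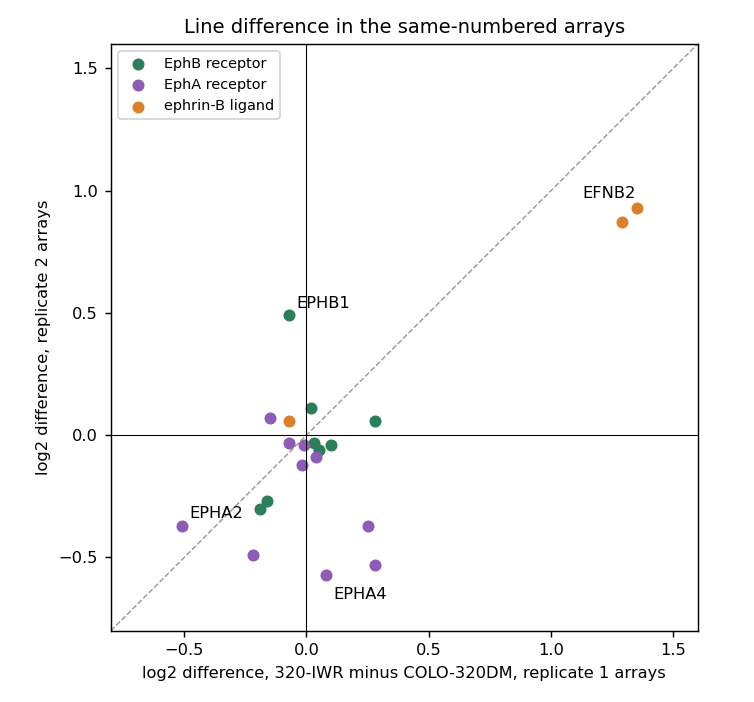
Log2 difference between the lines on the replicate 1 arrays (x) and on the replicate 2 arrays (y) for the 21 probe sets, coloured by class; the dashed line marks equal differences. The EFNB2 probe sets stand at 1.35 and 0.93 and at 1.29 and 0.87, EPHA2 is below 0 on both axes, and 3 of the EPHA4 probe sets are above 0 on one axis and below 0 on the other.

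The 9 measured genes lie on 7 chromosomes. The median log2 fold change of the 10 measured genes nearest to each of them, 5 on each side, lay between -0.09 and 0.12 for all 9. Limma called 0 of the 90 neighbours, and 8 had an unadjusted p under 0.05, against 12.3% of genes. The 10 neighbours of EFNB2 had log2 fold changes between -0.24 and 0.33, each smaller than that of EFNB2.

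Of the 12 other EPH receptor and ephrin genes, limma called 0 by their brightest probe sets, against 0.192% of genes that rose and 0.399% that fell. Their median log2 fold change was 0.08, against 0.02 over all genes, and 2 had an unadjusted p under 0.05, against 12.3% of genes. These were EPHA3 and EFNA4. EPHA3, a receptor of ephrin-A ligands, had 43.6 and 60.3 in 320-IWR cells against 14.9 and 24.7 in COLO-320DM cells. Its arrays were apart, with a log2 fold change of 1.42 (interval 0.63 to 2.21; limma adjusted p = 0.213). The COLO-320DM values were under the array medians, and with 16 added to every intensity the log2 fold change of EPHA3 was 0.93. Its other 2 probe sets were dimmer and had log2 fold changes of 0.36 and 0.03. EFNA4, an ephrin-A ligand gene, had 123 and 166 in 320-IWR cells against 188 and 223 in COLO-320DM cells, a log2 fold change of -0.52 (limma adjusted p = 0.505). The third ephrin-B gene, EFNB3, had a log2 fold change of -0.01.

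Of 57 measured genes whose products carry or modify EPH and ephrin signals, 2 rose and 0 fell, against 0.192% and 0.399% of all genes, and both rose by more than 5-fold. The median log2 fold change of the 57 was 0.04, and 14 had an unadjusted p under 0.05, 8 higher and 6 lower, against 12.3% of genes. This list was written with earlier results of these data known. Its counts are therefore no evidence that such genes changed more often than others. GRIP1 encodes a PDZ domain scaffold that binds the tails of ephrin-B ligands and of glutamate receptors. The GRIP1 probe set 235957_at had 91.8 and 89.4 in 320-IWR cells against 17.0 and 18.2 in COLO-320DM cells. Its log2 fold change was 2.36 (standard error 0.12, limma adjusted p = 0.0104). TIAM1 encodes an activator of the GTPase RAC1 that binds EPHA2 and ephrin-B ligands among many other partners. The TIAM1 probe set 213135_at had 93.1 and 103 in 320-IWR cells against 18.1 and 20.3 in COLO-320DM cells, a log2 fold change of 2.35 (standard error 0.13, limma adjusted p = 0.0142). In both genes the arrays of a line were close to each other and far from those of the other line. The COLO-320DM values of both probe sets were under the array medians, so the size of the fold depends on dim values. With 16 added to every intensity, the log2 fold changes were 1.67 for GRIP1 and 1.7 for TIAM1 (limma adjusted p = 0.0362 and 0.0452). A second probe set did not follow in either gene, with a log2 fold change of -0.19 for GRIP1 and 0.03 for TIAM1. That of GRIP1 had 13.1 and 9.81 in 320-IWR cells against 14.2 and 11.8 in COLO-320DM cells. That of TIAM1 had 21.5 and 28.0 in 320-IWR cells against 23.9 and 24.1 in COLO-320DM cells. All these values were under the array medians and, with no detection calls, may be background. The log2 fold changes stayed between 2.32 and 2.41 for GRIP1 and between 2.27 and 2.44 for TIAM1 when single arrays were left out, but the calls did not. Both were lost when either COLO-320DM array was left out (adjusted p = 0.066 and 0.0589 for GRIP1, 0.0781 and 0.0638 for TIAM1, without replicate 1 and replicate 2), and no probe set of the array passed without either 320-IWR array (0.167 and 0.169 for GRIP1, 0.172 and 0.195 for TIAM1).

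Because EPHB3 is a known β-catenin/TCF target, 15 other such genes of the intestine were set beside it. Limma called 0 of the 15, against 0.192% of genes that rose and 0.399% that fell. That count depended on the fit, with 2 called under cyclic loess, 4 as gene means and 0 with an offset of 16. In the main fit 12 of the 15 had an unadjusted p under 0.05 against 12.3% of genes, 10 of them lower in 320-IWR cells. The median log2 fold change was -0.61, against 0.02 over all genes. This list too was written with earlier results of these data known, so its counts are no test of these targets. NOTUM, a secreted Wnt inhibitor, had 67.9 and 79.9 in 320-IWR cells against 518 and 1001 in COLO-320DM cells (log2 fold change -3.29, limma adjusted p = 0.0566). The log2 fold change of NOTUM stayed between -3.76 and -2.81 when single arrays were left out. With 16 added to every intensity it was -3.04 (limma adjusted p = 0.133). SOX9, a transcription factor of the crypt base, had 20.7 and 15.1 in 320-IWR cells against 146 and 65.6 in COLO-320DM cells (-2.47, adjusted p = 0.146). EPHB3 had 0.17 and 0.03 in its 2 probe sets, and no test of the difference between EPHB3 and this list was made.

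**Figure D4:**
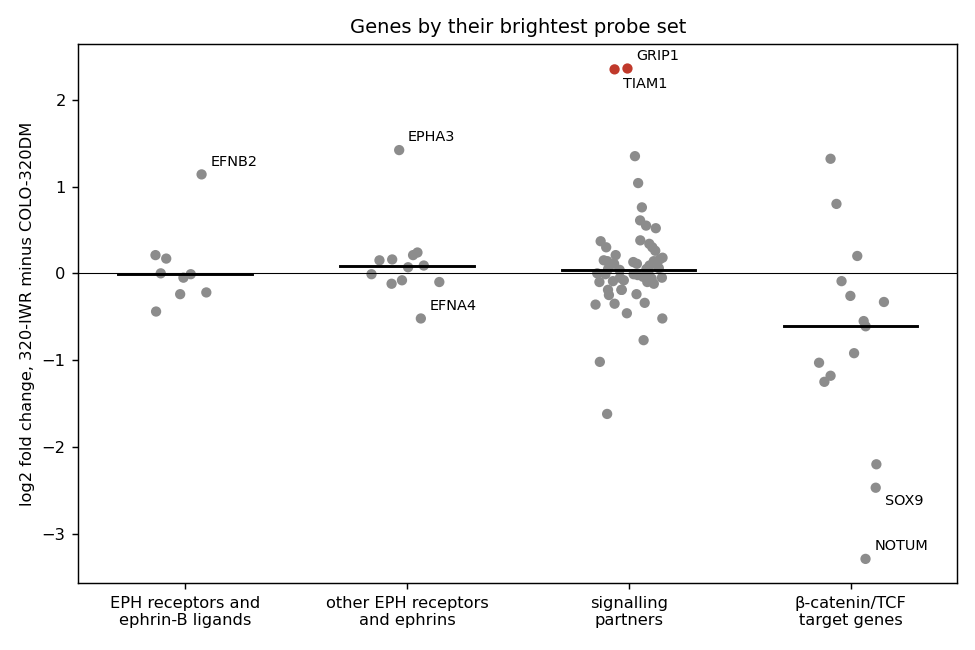
Log2 fold change of each gene by its brightest probe set, 320-IWR minus COLO-320DM, for the 9 measured EPH and ephrin-B genes and 3 further lists; black bars are medians and red points passed limma's test. EFNB2 stands at 1.14 above the other 8 genes of its group, and GRIP1 and TIAM1 stand at 2.36 and 2.35 among the signalling partners.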

How the data were processed

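Total RNA of 320-IWR and COLO-320DM cells was hybridised to 4 Affymetrix U133 Plus 2.0 arrays, 2 per line. The authors deposited 1 intensity per probe set and array. Per the labels the intensities were made with RMA, which subtracts background, equalises the distributions of the arrays and summarises the probes of a set, and the paper adds the GeneSpring GX software. The scanner images, the detection calls and the RMA version are not given in the sources used here.

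Intensities are linear, from 3.51 to 22475, and were put on the log2 scale (floor 1, reached by no value). After removal of 62 control probe sets from 54675, limma 3.58.1 in R 4.3.3 (lmFit, eBayes, constant prior of 2.78 degrees of freedom) was fitted to 54613 probe sets with cell line as its single factor. p-values were Benjamini-Hochberg adjusted over all of them. A probe set passed at an adjusted p under 0.05 and a difference of at least 2-fold. Intervals are 95% intervals of the same fit. The procedure was run on simulated arrays with known changes, as a check on the size of the estimates and on false calls. How often a true 2-fold difference is called with 2 arrays per line is not given here.

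Gene names came from the platform annotation: 41091 probe sets carry 1 symbol, 1801 several and 11721 none. Outside the 10 EPH and ephrin-B genes, which are all named, each of 19775 genes was represented by its brightest probe set. Of each further list, up to 4 genes that passed are named, or else the 2 largest differences with arrays apart. Promoters are RefSeq's of GRCh38.p14, and those of the ephrin-B genes are printed. The table also orders genes along chromosomes. Members, lists and tests were chosen with earlier results of these data known. Alternatives were a replicate block, leaving out each array, cyclic loess, equal medians, a limit on dim probe sets, an offset of 16, a trended robust prior, removal of the _x_at and _s_at probe sets, gene means over all probe sets, and a fold rule with no test.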

Additional observations from a re-analysis of the deposited data

How the results depend on the processing

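A replicate block in the fit raised the calls to 182 higher and 394 lower probe sets. Of the further lists it called 1 other EPH gene, EPHA3 (adjusted p = 0.0408), and 4 β-catenin/TCF targets, NKD1, TNFRSF19, SOX9 (0.0451) and NOTUM (0.0329), and still 0 of the 21 member probe sets (EFNB2 adjusted p = 0.0646 and 0.0676). Deviations of same-numbered arrays from their line means had a correlation of 0.661 over probe sets, but no label says that the numbers pair the arrays. With an offset of 16, 34 rose and 77 fell, and with the _x_at and _s_at probe sets removed 35 rose and 80 fell. β-Catenin/TCF targets passed in 2 genes under cyclic loess and in 2 without dim probe sets, NKD1 and NOTUM both times. As gene means 4 passed, NKD1, SOX9, NOTUM and SP5. The brightest probe set of SP5 was higher in 320-IWR cells, at a log2 fold change of 1.32 in the main fit. With single arrays left out, where the lone array of a line is assumed to vary like the other line, 0 to 19 probe sets rose and 0 to 44 fell, with 0 signalling partners, 0 to 1 targets and 0 members. With no test and a 2-fold rule, 2 member probe sets were higher. EFNB2 kept its direction in all 21 refits of its 2 probe sets, with log2 fold changes of 0.88 to 1.41 and 0.51 to 1.65 when an array was left out. The sign of 14 near-zero or variable probe sets turned when single arrays were left out, and their ranges were as follows. EPHB1 had -0.14 to 0.56 and -0.11 to 0.24, EPHB3 -0.09 to 0.15, EPHB4 -0.06 to 0.06 and EPHB6 -0.06 to 0.05. EPHA4 had -0.82 to 0.33, -0.80 to 0.55, -0.57 to 0.46, -0.94 to 0.23 and -0.09 to 0.04. EPHA7 had -0.18 to 0.12, -0.18 to 0.04 and -0.15 to 0.07, and EFNB1 -0.14 to 0.13. With equal medians 1 EPHB4 probe set turned to 0.00. The causes were not tested.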
